A study of Mus musculus with 16 samples.

Results

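The cytosolic ribosomal protein genes of the mouse heart were read in 83 of the 16118 gene rows of the deposited table. They were chosen by name alone: symbols that start with Rpl, Rps or Rplp and go on with a number, without the Rps6k kinases and without names marked as pseudogenes. Of the 83, 46 encode or resemble proteins of the large subunit, 34 belong to the small subunit and 3 (Rplp0, Rplp1 and Rplp2) form the stalk. The annotation calls 80 of them protein coding, while Rps3a2 and Rps3a3 are annotated as processed pseudogenes and Rps4l as a transcribed processed pseudogene. Genes such as Rpsa, Fau, Rpl36al and Rack1 also encode parts of the ribosome but fall outside the name rule, and Rpl10l and Rpl39l were not analysed here.

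Each of 8 male adult littermates gave RNA of its atrium and of its ventricle, 16 polyadenylated libraries in all, collected 2 weeks after tamoxifen. All mice were Meis1 flox/flox and Meis2 flox/flox, the genes of 2 homeodomain transcription factors. The 4 idKO mice carried in addition a single copy (tg/wt) of αMHC-MerCreMer, a tamoxifen-activated Cre recombinase under a cardiomyocyte promoter, and the 4 control mice lacked it (wt/wt). The transgene is thus part of each genotype difference, and cells other than cardiomyocytes keep their floxed alleles. The groups were idKO atrium, control atrium, idKO ventricle and control ventricle, with 4 mice each, and an atrium and a ventricle library came from each mouse.

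A ribosome joins ribosomal RNA with one copy of nearly every ribosomal protein, and cells make these proteins in matched amounts. Many of their mRNAs start with a run of pyrimidines, the terminal oligopyrimidine (TOP) start, through which mTORC1 signalling and the RNA-binding protein LARP1 control their translation. A few proteins have paralogs used in some tissues. The best known in muscle is RPL3L, made in heart and skeletal muscle, which takes the place of RPL3, a protein that reaches towards the peptidyl transferase centre of the large subunit.

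Sequences show how far a 60-base read can tell these genes apart, which decides what each row can mean. Rpl3 (chr15:80077791-80091868, minus strand) and Rpl3l (chr17:24727820-24736143, plus strand) have an identical base at 74.3% of 1206 aligned coding positions, and no identical run is longer than 22 bases. Of 1292 words of 60 bases in the Rpl3 transcript, 0 occur in Rpl3l. A processed pseudogene on the X chromosome, Rpl3-ps1, differs from Rpl3 at only 2 of 1209 coding bases and holds 1033 of the 1292 words. The stretch of a single exon in which Rpl3 and Rpl3l are most alike (chr15:80080475-80080534, minus strand, and chr17:24733327-24733386, plus strand) is shown with its copy in the pseudogene (chrX:13203091-13203150, plus strand), all in GRCm38 from the GENCODE transcripts. Capitals mark the 8 bases at which Rpl3 and Rpl3l differ, and the pseudogene matches Rpl3 throughout.
Rpl3: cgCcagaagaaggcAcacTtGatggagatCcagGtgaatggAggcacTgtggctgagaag
Rpl3l: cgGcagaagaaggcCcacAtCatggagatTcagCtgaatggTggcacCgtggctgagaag
Rpl3-ps1: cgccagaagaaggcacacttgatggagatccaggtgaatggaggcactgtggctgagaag

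One of the 2 bases that tell Rpl3-ps1 from Rpl3 lies near the start of the coding sequence. There (Rpl3 chr15:80082523-80082582, minus strand; Rpl3l chr17:24728317-24728376, plus strand; Rpl3-ps1 chrX:13202575-13202634, plus strand), Rpl3l differs from Rpl3 at 15 of 60 bases and Rpl3-ps1 at 1. Capitals mark in Rpl3 every base at which either of the others differs, and in the others the differing bases themselves.
Rpl3: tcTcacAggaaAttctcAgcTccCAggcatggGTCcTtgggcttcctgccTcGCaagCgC
Rpl3l: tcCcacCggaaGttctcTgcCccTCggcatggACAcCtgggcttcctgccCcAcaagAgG
Rpl3-ps1: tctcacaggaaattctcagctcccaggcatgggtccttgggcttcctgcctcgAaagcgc

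Rps3a1, a protein of the small subunit, has 2 such neighbours inside the name rule. Rps3a2 differs from it at 4 of 792 coding bases and Rps3a3 at 8 of 791. The 60-base window with the most differences from the copies is printed from Rps3a1 (chr3:86141333-86141392, minus strand), Rps3a2 (chr14:88123549-88123608, minus strand) and Rps3a3 (chr13:108670803-108670862, plus strand), with the differing bases in capitals.
Rps3a1: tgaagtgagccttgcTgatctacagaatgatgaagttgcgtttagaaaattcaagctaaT
Rps3a2: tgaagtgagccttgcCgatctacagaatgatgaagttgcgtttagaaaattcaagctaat
Rps3a3: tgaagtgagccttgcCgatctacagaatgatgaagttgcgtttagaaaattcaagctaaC

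Such copies are common in this family. At a threshold of 95% identity over 80% of the coding sequence, 75 of the 83 rows have an annotated near copy and 47 have one with a row of its own in the table. In 44 rows more than 50% of the 60-base words are shared with another gene. In 9 cases the row held under 50% of its sum with its copies, and in 3 of them under 10%: the Rpl12 row held 4.08%, Rpl5 4.25% and Rps12 6.40%, with the rest under Gm10275, Gm15500 and Rps12-ps3. The level of such a row is that of the row, and reads of the gene and its copies cannot be told apart beyond what the quantification assigned. Rpl3l shares 0% of its words with another gene.

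The start of the mRNA was read in RefSeq promoter windows, since the TOP start is the family's best known shared sequence. RefSeq promoter windows (GRCm38.p6, 250 bases before to 50 after the start) were given for 60 of the 83 genes; Rpl3 had none. A C within 5 bases of the start followed by at least 5 pyrimidines was found in 26 of the 60 (43.3%), against 11.95% of all 27025 promoters. CCGGAAG, a core of ETS factor sites searched on both strands, was in 40% against 9.93%, and AAGATGGC, a core of YY1 sites, in 10% against 3.19%. TATAAA was in 11.7% against 15.7%, the MEF2 box in 1.67% against 3.70%, and TGACAG, a core of MEIS sites, in 15% against 21.6%. Rpl3l has 2 windows, one at each of its annotated starts. The first, at the start of the gene, held TGACAG, and the second, inside the gene, held the MEF2 box. The TGACAG match was on the opposite strand and lay across the annotated start, not wholly within the 250 bases before it. Neither window held a match to the ETS core, the YY1 core, TATAAA or the TOP start, and most of the 60 genes had no match to each of these either. A match of letters is not a site. The TOP search is tied to the annotated start, so a missing match does not show that an mRNA lacks a TOP start. Windows from 10 bases before the start are printed for the first start of Rpl3l (chr17:24727816-24727845, plus strand) and, as examples of the TOP start in capitals, for the stalk gene Rplp2 (chr7:141447641-141447670, plus strand), for Rpl22l1 (chr3:28805498-28805527, plus strand) and for Rps2 (chr17:24720053-24720082, plus strand).
Rpl3l: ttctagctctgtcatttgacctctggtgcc
Rplp2: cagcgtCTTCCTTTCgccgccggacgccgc
Rpl22l1: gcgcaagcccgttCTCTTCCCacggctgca
Rps2: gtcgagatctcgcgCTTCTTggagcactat

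Libraries held 13117739 to 21771518 recovered reads. Values are normalised read counts on the deposited scale, given as CPM, that is per 1000000 effective reads (the effective library size being the reads times a factor that the scaling set). The effective size was 0.933 to 0.974 of the reads in idKO atria and 0.929 to 0.986 in control atria, against 0.649 to 0.727 in idKO ventricles and 0.622 to 0.650 in control ventricles. Mitochondrial genes took 16.4 to 17.8% of reads in idKO atria, 16.3 to 18.2% in control atria, 28.2 to 30.7% in idKO ventricles and 30.1 to 31.8% in control ventricles, so the scale matters for any level set across chambers. All 5 atrial markers were higher in atria in both genotypes and 3 of 4 ventricular markers were lower. Meis2 averaged 8.82 ± 0.848 CPM in idKO ventricles and 26.8 ± 4.24 in control ventricles (adjusted p = 1.96e-05, limma), and 17.7 ± 1.64 and 20.0 ± 1.48 in idKO and control atria. Meis1 averaged 23.1 ± 2.29 and 27.3 ± 0.767 in ventricles and 29.7 ± 2.76 and 28.3 ± 2.86 in atria, idKO first (SD, n = 4 each). These rows sum all exons of a gene, and the sources used here do not give which exons are deleted.

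Rpl3l was a gene of the ventricle. In idKO mice it had 22.7, 15.6, 20.4 and 19.8 CPM in the 4 atria, against 378, 317, 357 and 359 CPM in the 4 ventricles. In control mice it had 16.7, 22.9, 16.8 and 18.7 CPM in atria, against 388, 396, 395 and 406 CPM in ventricles. Every atrium lay far below every ventricle, and the control ventricles lay close together (CV 1.84%, the lowest of the 83 rows in that group). On the log2(value + 1) scale the difference was -4.11 ± 0.10 in idKO mice (SE; adjusted p = 2.88e-16) and -4.34 ± 0.10 in control mice (adjusted p = 1.06e-16; limma with Benjamini-Hochberg adjustment over 14871 genes). Atria held 5.58% of the ventricular level in idKO mice and 4.74% in control mice. Per kilobase of transcript, Rpl3l ranked 80 of 83 (rank 1 the highest) in atria of either genotype, 50 in idKO ventricles and 45 in control ventricles.

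Rpl3, the general paralog, ran the other way. It had 402, 376, 353 and 214 CPM in idKO atria, against 195, 201, 154 and 96.3 CPM in idKO ventricles. In control mice it had 443, 364, 361 and 209 CPM in atria, against 196, 177, 148 and 86.3 CPM in ventricles. Each mouse had more in its atrium than in its ventricle, and replicate 4 of either genotype was low in both chambers. The log2 difference was 1.07 ± 0.27 in idKO mice (adjusted p = 0.00281) and 1.19 ± 0.27 in control mice (adjusted p = 0.00111). With the reads of Rpl3-ps1 added, a sum chosen after the values were seen, the spread shrank: the difference was 1.05 ± 0.09 in idKO mice (adjusted p = 5.61e-09) and 1.23 ± 0.09 in control mice (adjusted p = 5.70e-10).

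**Figure D1:**
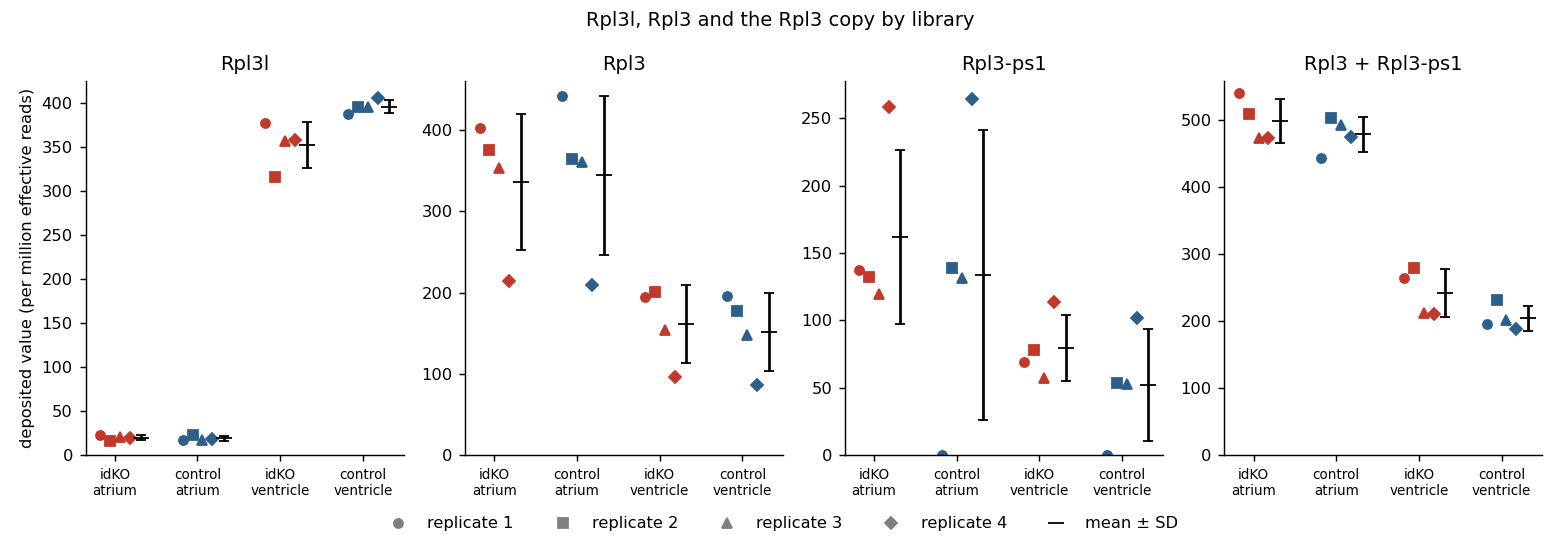
Deposited values of Rpl3l, Rpl3, Rpl3-ps1 and the sum of Rpl3 and Rpl3-ps1 in each library, in CPM, on linear axes from 0; symbols are replicates and black bars the mean ± SD of 4 libraries. Rpl3l lies between 15.6 and 22.9 in the 8 atria and between 317 and 406 in the 8 ventricles, while Rpl3 and the sum are higher in atria.

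The ratio of Rpl3l to Rpl3 needs no scale between libraries. It ran from 0.0416 to 0.0925 in idKO atria and from 0.0377 to 0.0893 in control atria, against 1.58 to 3.72 in idKO ventricles and 1.98 to 4.70 in control ventricles. The log2 ratio was lower in the atrium in 8 of 8 mice, by a mean of 5.43 (exact two-sided sign-flip test over 256 assignments, p = 0.0078, the smallest it can give; 0.0312 after adjustment over the 4 ratio tests). Counting Rpl3-ps1 with Rpl3 and scaling by transcript length, Rpl3l made up 2.94 to 4.08% of the 3 rows in idKO atria and 3.25 to 4.28% in control atria, against 52.7 to 62.7% in idKO ventricles and 62.8 to 67.9% in control ventricles. The 3 rows together came to 383 ± 24.6 CPM per kilobase in idKO atria, 367 ± 21.0 in control atria, 435 ± 25.6 in idKO ventricles and 439 ± 13.5 in control ventricles (SD, n = 4 each). The paralogs thus differed between chambers far more than their sum did on this scale.

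Between genotypes, the Rpl3l values in ventricles did not overlap on the deposited scale. The 4 idKO ventricles lay at 317 to 378 CPM and the 4 control ventricles at 388 to 406 CPM, a mean of 89.0% of the control level. The log2 fold change was -0.17 ± 0.06, and it missed the threshold (unadjusted p = 0.0144, adjusted p = 0.196, limma over 13144 genes). On other scales the groups did overlap: as a share of all reads Rpl3l had 230.2 to 262 reads per 1000000 in idKO ventricles and 246 to 264 in control ventricles (log2 fold change -0.07, adjusted p = 0.516), and outside mitochondrial genes 322 to 365 and 361 to 377, idKO first (-0.11, adjusted p = 0.331). Of the 81 rows tested in ventricles Rpl3l was the only one with all idKO libraries below all control libraries on the deposited scale, where 5.81% of all genes showed that order. In atria Rpl3l averaged 19.7 ± 2.96 CPM in idKO mice and 18.8 ± 2.91 CPM in control mice, and the groups overlapped (log2 fold change 0.06 ± 0.13, adjusted p = 0.991). The difference between the chambers' genotype effects was 0.23 ± 0.14 (adjusted p = 0.849).

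The log2 ratio of Rpl3l to Rpl3 in ventricles was 0.96, 0.66, 1.21 and 1.90 in idKO mice, against 0.99, 1.16, 1.42 and 2.23 in control mice, and the groups overlapped (difference -0.27, exact permutation over 70 assignments, p = 0.486). With Rpl3-ps1 counted as Rpl3 it was 0.52, 0.18, 0.76 and 0.77 in idKO ventricles, against 0.99, 0.78, 0.98 and 1.11 in control ventricles. These no longer overlapped, though the nearest pair lay at 0.77 and 0.78 (difference -0.40, exact p = 0.0286, the smallest 4 against 4 can give; 0.0571 after adjustment over 4 tests). Against the median of the other ribosomal protein rows, the Rpl3l ratio differed by -0.22 in ventricles (exact p = 0.0286). In atria the log2 ratio to Rpl3 differed by 0.09 (exact p = 0.8286), and the difference of the differences was 0.36 (exact p = 0.114).

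Single genes or sums of several marker lists differed between genotypes in the same ventricles. The 5 atrial markers summed to 496 to 1664 CPM in idKO ventricles and 192 to 236 in control ventricles, with 1 of 4 tested called higher, the natriuretic peptide gene Nppa (1115 ± 499.9 and 185 ± 25.0 CPM, adjusted p = 0.000317, limma). Of the 4 atrial markers tested 2 were positive, with a median log2 fold change of 0.01, so that list did not shift as a whole. Of the 4 ventricular markers 1 was called lower, the transcription factor gene Irx4 (24.9 ± 4.33 and 38.7 ± 2.87 CPM, adjusted p = 0.00991), while their sums overlapped (14773 to 18172 and 15769 to 17842 CPM). Here too 2 of 4 were positive, with a median of -0.10. The 7 macrophage markers summed to 393 to 474 CPM in idKO ventricles and 344 to 362 in control ventricles, with 1 called higher, Lyz2 (adjusted p = 0.0292). The atrial and macrophage sums thus did not overlap between genotypes. The 4 mesothelial markers summed to 7.65 to 21.1 CPM in idKO ventricles and 23.2 to 28.3 in control ventricles, with 1 of 3 tested called lower, Msln (adjusted p = 0.0110). The 8 cardiomyocyte markers overlapped in sum, at 65964 to 77170 CPM in idKO ventricles and 75945 to 81978 in control ventricles, with 1 called lower, the calcium release channel gene Ryr2 (1485 ± 179 and 2342 ± 177 CPM, adjusted p = 0.00111). The 7 fibroblast markers also overlapped, at 944 to 1497 CPM in idKO ventricles and 893 to 1017 in control ventricles, and 0 were called. Their part in the Rpl3l values was not tested, and in whole tissue a change in the makeup of cells and one in RNA per cell cannot be told apart.

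For the family as a whole, no row passed the test for genotype. In ventricles 0 of 81 tested rows were called higher, against 0.533% of all genes, and 0 lower, against 1.5%. In atria 0 of 81 were called higher, against 0.0207%, and 0 lower, against 0%. The interaction gave 0 of 83 higher, against 0.269%, and 0 lower, against 0.0269%. At an unadjusted p under 0.05, limma gave 6 rows in ventricles, 10 in atria and 2 for the interaction, where all genes gave 15.0%, 4.61% and 6.54%, and neither edgeR nor DESeq2 called any at an adjusted p under 0.05.

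Most estimates were nevertheless above 0. In atria 77 of 81 rows had a positive log2 fold change, with a median of 0.11, beside 49.9% of all 14523 genes and a median of -0.00. In ventricles 67 of 81 were positive with a median of 0.05, beside 47.98% of 13144 genes and a median of -0.01. The ventricular median was 0.03 (53 positive) without idKO replicate 1, 0.08 without idKO replicate 3 and 0.09 without control replicate 2. On the scale of all reads it was 0.16 (78 positive), with the median of all genes at 0.09. The rows share cells, reads and copies, so they do not count as separate pieces of evidence. Summed over the 83 rows, the level was 18433 ± 1017 CPM in idKO atria and 17168 ± 964 in control atria, and 18993 ± 981 in idKO ventricles and 18403 ± 737 in control ventricles (SD, n = 4 each). The lowest and highest idKO atria were at 17239 and 19352 and the control atria at 16199 and 18216, and in ventricles the ranges were 17924 to 19982 and 17771 to 19328, idKO first, so the sums overlapped in both chambers.

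**Figure D2:**
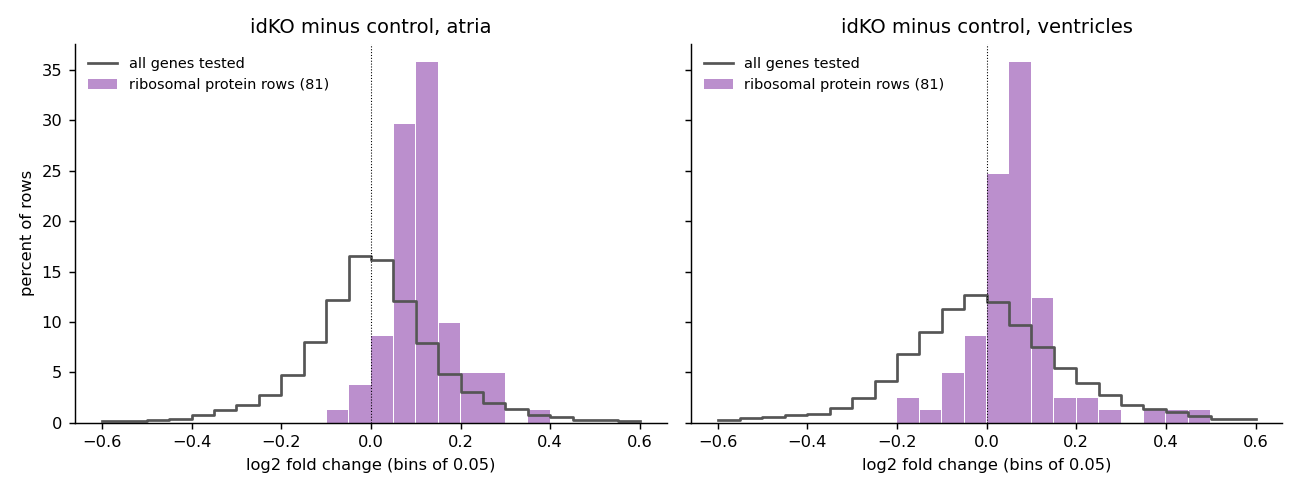
Share of rows in bins of 0.05 of the log2 fold change between idKO and control mice, for atria (left) and ventricles (right); bars are the 81 tested ribosomal protein rows and the line all genes tested, of which values beyond 0.6 are not drawn. The bars centre at a median of 0.11 in atria and 0.05 in ventricles, right of the line's centre, and no row passed the test.

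The order of libraries showed the same small sizes. In atria 7 rows had all idKO libraries above all control libraries (among them Rpl22, Rpl29, Rpl4, Rps23 and Rps6), which 1.52% of all genes did, and 0 rows had all below, which 1.3% did. Rps6 is a protein of the small subunit that S6 kinases phosphorylate. The smallest p in atria belonged to Rps23, a protein of the decoding centre, at a log2 fold change of 0.29 (unadjusted p = 0.0009, adjusted p = 0.811). The Rps23 row held 33.1% of its sum with Rps23-ps1, and for that sum the change was 0.13 (unadjusted p = 0.0661), with 274 to 309 CPM in idKO atria and 244 to 289.7 CPM in control atria, which overlap. In ventricles Rpl11 and Rpl14 had all idKO libraries above control, and 3.17% of all genes did. Rpl11, which can bind and restrain the p53 regulator MDM2, had a log2 fold change of 0.15 there (adjusted p = 0.287). With copies summed the groups overlapped for both: Rpl11 had 286 to 329 CPM in idKO ventricles and 272 to 316 in control ventricles (log2 fold change 0.06), and Rpl14 had 227 to 259 and 228 to 245 CPM, idKO first (0.03).

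Between chambers 32 of 83 rows passed the test in each genotype on the deposited scale. There this was a smaller share (38.6%) than of all genes (53.8% in idKO mice and 56.9% in control mice). In idKO mice 10 of 83 rows were called higher in atria, against 26.8% of all genes, and 22 lower, against 27.1%. In control mice 7 were called higher, against 28.2%, and 25 lower, against 28.7%. Of the 32 calls in each genotype 27 were shared, 84.4% of either list, 7 higher and 20 lower, with 0 in opposite directions. This overlap was counted for these rows only, so it cannot be read as a trait of the family. Without idKO replicate 4 the idKO count was 20, 7 higher and 13 lower, beside 7199 of 14784 genes called. Both the share called and the split rest on the scale. As shares of all reads, 68 rows were higher and 2 lower in idKO mice, beside 62.2% and 10.4% of all genes. In control mice 72 were higher and 2 lower, beside 66.4% and 9.35%. This scale moves the median of all genes to 0.44 and 0.51, and on it a larger share of the 83 rows than of all genes was called. As shares of reads outside mitochondrial genes the split was 38 and 4 in idKO mice, beside 45% and 15.9% of all genes. In control mice it was 44 and 5, beside 48.7% and 15.4%. The all-gene medians were 0.26 and 0.29. Centred on the median gene the split was 5 and 28 in idKO mice, beside 23.4% and 30.4% of all genes. In control mice it was 6 and 37, beside 25.2% and 31.7%. On the deposited scale the members' median was -0.06 in idKO mice and -0.09 in control mice, beside 0.02 for all genes in either.

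**Figure D3:**
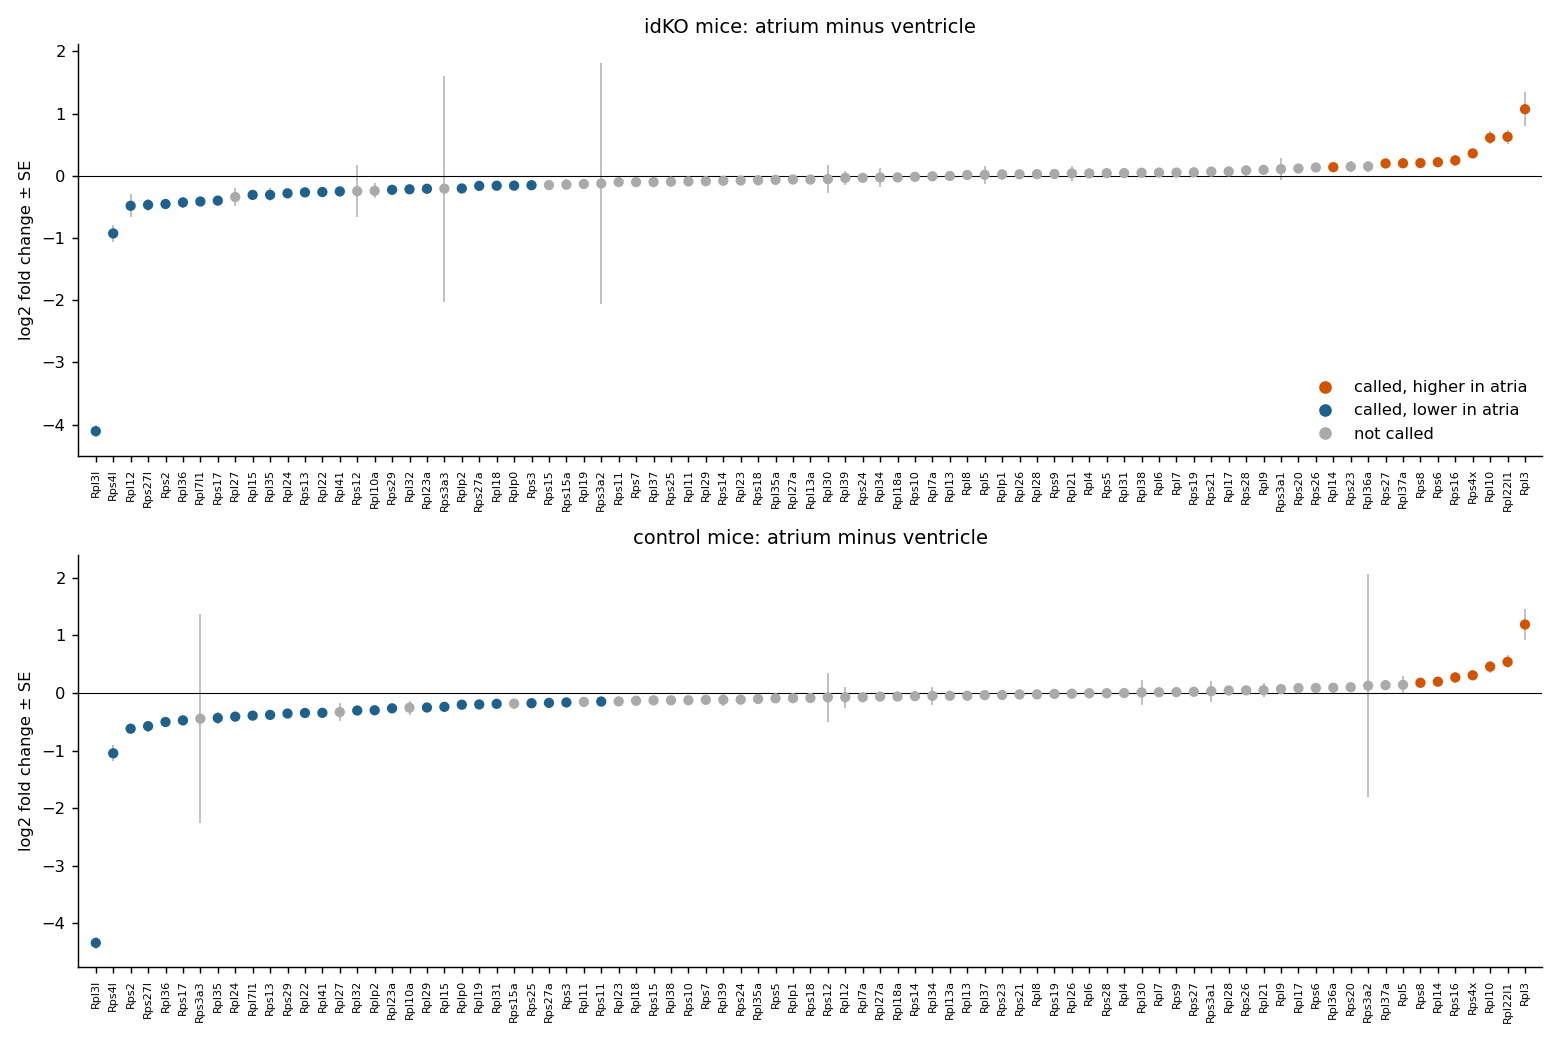
Log2 fold change (± SE) between atrium and ventricle for each of the 83 rows, in order of size, in idKO mice (top) and control mice (bottom); coloured points passed the test. Rpl3l stands alone at -4.11 and -4.34, Rps4l follows at -0.93 and -1.05, and Rpl3 lies at the other end at 1.07 and 1.19.

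Under all 4 scales and in both genotypes 6 rows kept their call and direction: Rpl3, Rpl22l1, Rpl10 and Rps4x were higher in atria, and Rpl3l and Rps4l were lower. No share of all genes stands beside this count, so it cannot be read as large or small. Rpl22l1, the paralog of the RNA-binding large-subunit protein RPL22, had 73.7, 75.4, 56.4 and 62.3 CPM in idKO atria, against 47.4, 44.7, 38.8 and 40.7 CPM in idKO ventricles. In control mice it had 58.5, 88.8, 78.1 and 63.4 CPM in atria, against 46.9, 50.7, 48.4 and 48.8 CPM in ventricles. Atria and ventricles did not overlap in either genotype (log2 fold change 0.62 ± 0.11, adjusted p = 0.000127, and 0.54 ± 0.11, adjusted p = 0.000504, idKO first). Its partner Rpl22 was lower in atria on the deposited scale, by -0.26 ± 0.05 in idKO mice and -0.35 ± 0.05 in control mice, and higher as a share of all reads, by 0.22 in both. Rpl22l1 in ventricles averaged 42.9 ± 3.88 CPM in idKO mice and 48.7 ± 1.54 in control mice, a genotype difference of -0.18 ± 0.08 that missed the threshold (adjusted p = 0.291).

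Rpl10, which joins the large subunit in the last steps of its maturation, averaged 277 ± 11.5 CPM in idKO atria and 184 ± 36.0 in idKO ventricles (log2 fold change 0.61 ± 0.10, adjusted p = 5.83e-05). In control mice it averaged 249.8 ± 26.5 CPM in atria and 181 ± 9.37 in ventricles (0.46 ± 0.10, adjusted p = 0.000921). Summed with its copies, of which Rpl10-ps3 holds most of the rest, the differences were 0.46 ± 0.05 and 0.43 ± 0.05, idKO first. Rps4x, the X-linked small-subunit protein, averaged 541 ± 37.5 CPM in idKO atria and 422 ± 30.4 in idKO ventricles (0.36 ± 0.06, adjusted p = 6.04e-05), and 502 ± 22.4 and 406 ± 16.03 in control mice (0.31 ± 0.06, adjusted p = 0.000284).

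Rps4l (chr6:148354656-148355598, plus strand), annotated as a transcribed processed pseudogene, took the opposite direction to Rps4x. It had 9.6, 10.9, 14.6 and 9.0 CPM in idKO atria, against 21.0, 20.3, 25.1 and 20.0 CPM in idKO ventricles. In control mice it had 10.7, 8.3, 11.0 and 10.3 CPM in atria, against 27.0, 19.3, 19.9 and 21.9 CPM in ventricles. All 8 atria lay below all 8 ventricles, on 122 to 331 reads per library (log2 fold change -0.93 ± 0.14, adjusted p = 1.63e-05, and -1.05 ± 0.14, adjusted p = 3.54e-06, idKO first). It shares 13.7% of its 60-base words with other genes.

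The other paralog pairs moved little or by the scale. Rps27l, a paralog of Rps27 known as a p53 target, was lower in atria by -0.47 ± 0.09 in idKO mice and -0.58 ± 0.09 in control mice, with 50.7 ± 4.58 CPM in idKO atria and 70.5 ± 5.83 in idKO ventricles, and 45.4 ± 5.74 in control atria and 67.9 ± 5.80 in control ventricles. As shares of all reads these differences were 0.01 and -0.02. Rps27 itself was called in idKO mice, at 0.20 ± 0.07, and not in control mice, at 0.02 ± 0.07, and the interaction did not pass (0.18 ± 0.10, adjusted p = 0.808). Rpl7l1, a relative of Rpl7 found in the nucleolus, differed by -0.41 ± 0.07 and -0.39 ± 0.07, idKO first, where Rpl7 gave 0.05 ± 0.06 and 0.01 ± 0.06. As shares of all reads Rpl7l1 gave 0.06 and 0.16 and Rps27a 0.32 and 0.39. Rps27a, made as a fusion with ubiquitin, gave -0.16 ± 0.07 and -0.17 ± 0.07. Rpl36al, outside the name rule, gave -0.17 ± 0.06 and -0.28 ± 0.06, and as a share of all reads it was higher. Rpl36a (0.15 and 0.09) and Rpl39 (-0.04 and -0.12), a protein of the exit tunnel, were not called in either genotype; with copies summed Rpl36a gave 0.15 and 0.17 and was called in control mice (adjusted p = 0.0452, limma), and Rpl39 gave 0.01 and 0.02.

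Rps2, a small-subunit protein near the mRNA entry channel, lies upstream of Rpl3l on the same strand (chr17:24718116-24721929). It had 171, 168, 166 and 163 CPM in idKO atria, against 239, 222, 232 and 225 CPM in idKO ventricles. In control mice it had 151, 173, 164 and 167 CPM in atria, against 239, 269, 246 and 255 CPM in ventricles. The chambers did not overlap (log2 fold change -0.45 ± 0.05, adjusted p = 5.67e-07, and -0.62 ± 0.05, adjusted p = 7.88e-09, idKO first), though as shares of all reads the differences were 0.02 and -0.06 and neither was called. Rpl12 was called lower in idKO atria, at 9.71 ± 2.59 CPM beside 13.7 ± 1.12 CPM in idKO ventricles, and summed with Gm10275 its difference was 0.08 ± 0.07 and was not called.

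Of the stalk, which recruits the translational GTPases, Rplp0 was lower in atria by -0.16 ± 0.05 and -0.20 ± 0.05 and Rplp2 by -0.20 ± 0.07 and -0.30 ± 0.07, idKO first, while Rplp1 gave 0.02 ± 0.09 and -0.09 ± 0.09. As shares of all reads Rplp0 was higher by 0.32 and 0.36 and Rplp2 by 0.27 and 0.26. Per kilobase, Rplp1 was the most abundant row in control ventricles, at 1223 ± 103 CPM per kilobase, ahead of Rpl41, which encodes a very short basic peptide, at 821 ± 80.6 and Rpl23a, a protein at the tunnel exit, at 687 ± 35.3. Rpl41 and Rpl23a do not overlap in mean ± SD, and each was lower in atria on the deposited scale and higher as a share of all reads. At the other end were Rpl27 at 26.7 ± 4.12, Rpl5 at 8.46 ± 1.47 and Rpl12 at 8.38 ± 1.63, and the last pair differed by less than their SD. Most reads of these 3 were assigned to copies, with 11.3%, 4.25% and 4.08% of the summed copies in the row itself.

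Mice differed in how reads were divided between near-identical rows, shown here for 4 families. Others divided by mouse as well: in idKO replicate 4 Rpl15-ps3 had 72.0 CPM in the atrium and 52.8 CPM in the ventricle, where the other mice had at least 97.8 CPM, and Gm10020, another copy of Rpl15, had 22.8 and 33.7 CPM, where they had at most 1.0114 CPM. Rpl3-ps1 had 138, 132, 119 and 258 CPM in idKO atria, against 0.0387, 139, 131 and 265 CPM in control atria. In ventricles it had 69.0, 78.3, 56.9 and 113 CPM in idKO mice, against 0.0408, 53.2, 53.0 and 102 CPM in control mice. Control replicate 1 was without reads in both chambers, replicate 4 of either genotype was highest, and the other 5 mice lay between. As a share of the sum with Rpl3, Rpl3-ps1 came to 54.1 to 55.8% in replicate 4 of either genotype and 23.1 to 28.1% in the 5, with at most 4.55 percentage points between a mouse's atrium and ventricle. The highest mouse over the lowest was 2.11 in atria and 2.32 in ventricles for Rpl3 alone, and 1.22 and 1.48 for the sum.

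Rps3a2 and Rps3a3 split by mouse as well. Their share of the 3 rows with Rps3a1 was 37.5% in the atrium and 34.5% in the ventricle of idKO replicate 2, against 37.8% and 35.9% in control replicate 1, and at most 0.27% in the other 6 mice. Without these 4 libraries they would not have reached the filter of the fits on all 16 libraries. Rps3a1 itself ran from 354 to 650 CPM over all libraries, and the sum of the 3 from 537 to 673. Rpl34-ps1 took 23.7 to 27.8% of its sum with Rpl34 in 3 mice (idKO replicate 4 and control replicates 1 and 4) and at most 1.02% in the other 5. Gm12191 took 1.86 to 49.1% of its sum with Rpl30, with at most 5.72 points between the chambers of a mouse.

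**Figure D4:**
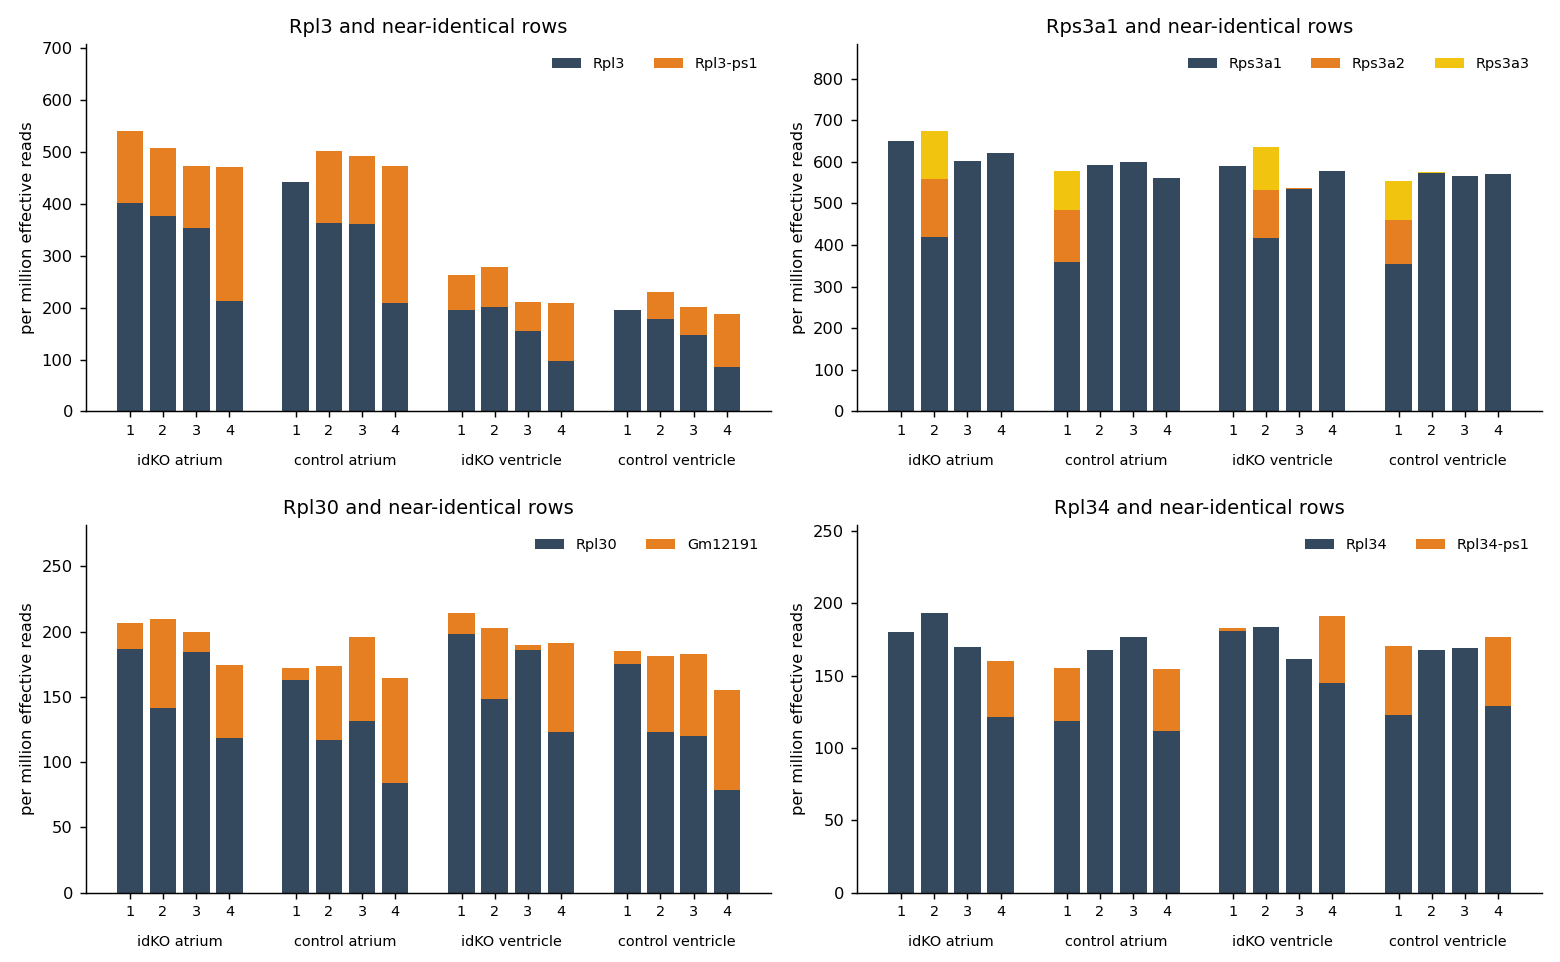
Deposited values, in CPM, of Rpl3, Rps3a1, Rpl30 and Rpl34 stacked with their near-identical rows, 1 bar per library, with the replicate number under each bar. The division of a bar changes from mouse to mouse and is alike in the atrium and ventricle of a mouse, while the heights stay within 537 to 673 for Rps3a1 and its copies.

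A test for mouse within genotype over both chambers, chosen after the values were seen, called 14 of 83 rows, beside 4.28% of all genes. Rps3a2 and Rps3a3 are among the 14 but were tested because they are high in 2 mice, so their calls carry no weight, and 12 of 81 remain without them. Rpl3, Rps3a1, Rpl30 and Rpl34 were called with adjusted p from 2.65e-07 to 0.000446 (limma). With each row summed with those copies that have a row of their own, 8 of 81 were called, beside 640 of all 14823 rows. Rpl3 then had an adjusted p of 0.0657 (limma), and neither Rps3a1, Rpl30 nor Rpl34 was among the 8. Those left were led by Rpl21 (adjusted p = 0.00222) and Rplp1 (adjusted p = 0.00235). For Rpl21 nothing was summed, since 0 of its 56 annotated copies have a row. The same holds for Rps19, Rpl13a and Rpl41, also among the 8. Reads divided with copies that lack a row are thus not covered by this sum.

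The genes around the ribosome were read in lists. For genotype, 0 of 11 elongation factors, 0 of 36 initiation factors, 0 of 40 genes of ribosome biogenesis, 0 of 18 genes of mTORC1 and TOP control and 0 of the 5 ribosomal proteins outside the name rule were called in either chamber or for the interaction. In atria their medians were 0.04, 0.00, 0.02, -0.04 and 0.13, and in ventricles -0.04, -0.07, -0.03, -0.11 and 0.03. On the deposited scale more of the chamber calls were lower in atria, beside 27.1% of all genes called lower in idKO mice and 28.7% in control mice. In idKO mice initiation factors had 2 higher and 23 lower and biogenesis genes 1 and 19, and in control mice 1 and 28, and 0 and 24. As shares of all reads the counts for initiation were 23 and 3 in idKO mice and 21 and 2 in control mice. For biogenesis they were 21 and 2 in both. On that scale 62.2% of all genes were called higher and 10.4% lower in idKO mice, and 66.4% and 9.35% in control mice. The sign of both lists thus moved with the scale, but their medians lay below that of all genes under each of the 4 scales. In control mice the medians were -0.37 for initiation and -0.31 for biogenesis on the deposited scale, beside 0.02 for all genes. As shares of all reads they were 0.19 and 0.22, beside 0.51.

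One pair among the elongation factors kept opposite directions. Eef1a1, the general factor that brings aminoacyl-tRNA to the ribosome, averaged 3542 ± 173 CPM in idKO atria and 1015 ± 185 in idKO ventricles, and 3358 ± 81.9 in control atria and 866 ± 27.2 in control ventricles. Its muscle and nerve paralog Eef1a2 averaged 693 ± 76.8 CPM in idKO atria and 1476 ± 171 in idKO ventricles, and 745 ± 28.5 in control atria and 1586 ± 106 in control ventricles (SD, n = 4 each). The log2 differences were 1.82 ± 0.09 in idKO and 1.95 ± 0.09 in control mice for Eef1a1 and -1.09 ± 0.08 in both genotypes for Eef1a2, with adjusted p from 2.37e-09 to 1.79e-12 (limma). Under the 4 scales Eef1a1 stayed between 1.76 and 2.52 and Eef1a2 between -1.15 and -0.52, and all were called. Eif4e, which binds the mRNA cap, was lower in atria by -1.34 ± 0.06 and -1.47 ± 0.06, and Larp1b, a relative of LARP1, by -1.07 ± 0.06 and -1.02 ± 0.06, idKO first, and both kept that call under the 4 scales. Cell type markers also differed between chambers. All 7 fibroblast markers were called higher in atria in both genotypes under each of the 4 scales. Their sums were 1452 to 2079 CPM in idKO atria and 1257 to 1836 in control atria, against 944 to 1497 and 893 to 1017 in idKO and control ventricles. On the deposited scale all 4 mesothelial, all 4 Schwann cell and 3 of 4 smooth muscle markers were called higher in atria of both genotypes. Of 5 adipocyte markers 4 were called higher and 1 lower, and all 5 erythroid markers were called lower. Cardiomyocyte markers summed to 48915 to 56664 CPM in idKO atria and 50379 to 59596 in control atria, against the ventricular sums given above. Of the 8 cardiomyocyte markers 1 was called higher and 6 lower in idKO atria, and 0 and 6 in control atria. As shares of all reads the counts were 2 and 5 in idKO mice and 3 and 4 in control mice. The part of these cell types in the chamber differences was not tested. In whole tissue the makeup of cells and RNA per cell cannot be told apart.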

How the data were processed

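Polyadenylated RNA of 16 libraries was sequenced as single reads of 60 bases from 20 ng of RNA, per the labels' protocols. Cutadapt, RSEM 1.3.1 and the build GRCm38 are named in the submitters' processing notes; the sources used here give neither the annotation release nor the scaling tool. The values the authors deposited are a normalised signal: 0.5 was added to a whole read number, which was divided by the effective library size and multiplied by 1000000 (CPM). Reads recovered from them were whole for 100% of values within 0.01. Annotation, lengths and coding sequences came from GENCODE vM21.

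Genes reaching 1 CPM in at least 4 libraries of a fit were tested with limma 3.58.1 (R 4.3.3) on log2(value + 1), two-sided, with a trended prior and Benjamini-Hochberg adjustment over all genes, and called at an adjusted p under 0.05. This scale understates changes of low genes. Genotype was fitted on the 8 libraries of a chamber, and chambers and interaction on all 16. Ratios were compared by exact permutation, for which the smallest p of 4 against 4 is 0.0286. Near copies were found with blastn 2.17.0+. edgeR 4.0.16 and DESeq2 1.42.0 on recovered reads were alternatives. Genes were named by a rule (Rpl3l, Rpl3, paralog pairs, the stalk, the 3 highest and 3 lowest rows per length in control ventricles, up to 4 calls of largest change in each direction per fit, and up to 4 of smallest p in each related list); Rps23, Rpl11, the Rpl15 copies, the rows whose groups do not overlap, and the rows and families of the test for mouse were chosen for naming with their values known. Some genes are not reported here by name. The members, lists and tests were chosen with earlier results of these data known. The mouse number pairs atrium and ventricle, as both came from one animal. Deviations from the group means correlated at 0.188 to 0.325 across 14871 genes. Across the 83 rows, those divided by mouse among them, they correlated at 0.751 to 0.992. The main fits of chambers and interaction left mouse out, and counts with mouse as a replicate block are given below. Replicates differed by more than sampling noise (mean chi-square per gene 8.08 to 16.8), and each is a separate mouse per the labels.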

Additional observations from a re-analysis of the deposited data

Results flagged for a closer look

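In 4 of 100 groups of 4 libraries examined (25 named quantities in 4 groups), 1 library stood apart by Dixon's gap test at the 95% level; chance gives about 1 in 20. Rpl10 in control ventricles had a lowest library at 167.05 CPM, next to 185 CPM. Rpl23a in idKO ventricles had a highest library at 418.9 CPM, next to 379 CPM. Rplp0 in idKO atria had a highest library at 592.3 CPM, next to 557 CPM. Rpl3-ps1 in idKO atria had a highest library, replicate 4, at 258.2 CPM, next to 138 CPM.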

How the results depend on the processing

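No alternative called a ribosomal protein row for genotype or interaction. The 32 chamber calls in each genotype became 70 in idKO and 74 in control mice as shares of all reads, beside 10793 and 11266 of 14871 genes. Outside mitochondrial reads they became 49 in control mice, beside 9532 genes. With mouse as a replicate block they were 40 (fixed) and 36 (random) in idKO mice, beside 8560 and 8686 genes. In control mice they were 42 and 38, beside 8955 and 9120 genes. Leaving out a mouse gave 20 to 32 in idKO and 26 to 32 in control mice, beside 6895 to 7977 and 7450 to 8417 genes. The 14 of 83 rows called for mouse, beside 4.28% of all genes, became 8 of 81 with copies summed, beside 640 of all 14823 rows. The ventricular genotype difference in the log2 ratio of Rpl3l to Rpl3, -0.27, passed the unadjusted threshold at -0.22 over the median of the other rows and at -0.40 over Rpl3 and Rpl3-ps1, and ran from -0.51 to -0.01 without a mouse; its interaction ran from 0.28 to 0.51, the highest without control replicate 2 (exact permutation p = 0.0286). As shares of all reads the chamber difference turned positive in idKO mice for Rpl22 (0.22), Rpl23a (0.27), Rpl41 (0.23), Rpl7l1 (0.0575), Rplp0 (0.32), Rplp2 (0.27), Rps2 (0.0247), Rps27a (0.32) and Rps27l (0.00548), and in control mice for Rpl22 (0.22), Rpl23a (0.30), Rpl41 (0.22), Rpl7l1 (0.16), Rplp0 (0.36), Rplp2 (0.26) and Rps27a (0.39). Outside mitochondrial reads it turned positive in idKO mice for Rpl23a (0.0498), Rpl41 (0.00726), Rplp0 (0.10), Rplp2 (0.0541) and Rps27a (0.10), and in control mice for Rpl23a (0.0376), Rplp0 (0.10), Rplp2 (0.00293) and Rps27a (0.13). These turns follow from the scale, which moves all genes together. With copies summed, Rpl12 in idKO mice was at 0.0843; the cause was not tested. Of 794 alternatives for single genes, 730 stayed on their side of the threshold, 9 of them with a changed sign that passed no threshold either way, 38 lost the call and 26 turned. Depth limits Rps4l (122 to 331 reads) and Rps3a2 and Rps3a3 (12 libraries each under 20 reads).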
